A study of Mus musculus with 25 samples.

Results

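High P was compared with vehicle in the brain cortex of 5xFAD mice. The genes described are those with at least 0.5 FPKM (fragments per kilobase of gene length, scaled to the size of the library) in at least 5 of the 10 libraries of the 2 groups, which held for 15043 of the 54532 genes listed. Of the others, 24722 were at 0 in all 10 libraries and 14767 lay below that level. At the threshold itself, 339 genes reached 0.5 FPKM in exactly 5 libraries and were kept, and 404 genes reached it in 4 and were not. The fifth highest value of Vsig10, just inside, was 0.5004 FPKM, and that of Ccdc77, just outside, was 0.4998 FPKM.

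AD_HighP holds 5 5xFAD mice given the high dose of P, and AD_Veh holds 5 5xFAD mice given vehicle. Both groups carry the 5xFAD transgenes, mutant human APP and presenilin 1 driven by mouse Thy1 sequences, so neither is free of the amyloid model. The study also held 5 wild-type mice given high P (WT_HighP), 5 5xFAD mice given low P (AD_LowP) and 5 wild-type mice given vehicle (WT_Veh), which gave 25 libraries in all. P is described only as a derivative of a natural product. Not given in the sources used here are its identity, doses, duration and route, the age of the mice, and any litter or batch.

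In 5xFAD cortex, amyloid plaques are surrounded by microglia, the resident phagocytes of the brain, which lower their homeostatic genes and raise a set of lysosomal, lipid and antigen-handling genes that depend on the receptor Trem2 and its adaptor Tyrobp. Astrocytes near plaques raise Gfap and the serine protease inhibitor Serpina3n, and complement and class I antigen presentation genes are raised as well. A compound that acts on plaques or on inflammation is commonly read on these genes. Cortex is dissected beside the striatum, the meninges and the lateral ventricle with its choroid plexus, and each of these has RNA of its own that can enter the sample in different amounts.

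Reads assigned to genes numbered 15518358 to 16961077 in AD_HighP mice and 16029636 to 16561965 in AD_Veh mice (exact permutation p = 0.635, two-sided). Cortical markers were present in every library: Slc17a7, the vesicular glutamate transporter of cortical excitatory neurons, lay between 244 and 309.7 FPKM in AD_HighP mice and between 173 and 271 FPKM in AD_Veh mice. Sex was read from Xist and Y-linked transcripts, and replicates 1 to 3 were male and replicates 4 and 5 female in both groups. Each library is from a separate mouse, per the study's design text. In bulk tissue, fewer cells of a type and less RNA per cell cannot be told apart, and this holds for every cell type marker below.

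Striatal genes were at lower levels in 4 of 5 AD_HighP cortices than in any AD_Veh cortex. The summed level of 19 striatal genes was 201, 314, 814, 167 and 356 in AD_HighP mice, against 492, 1116, 704, 1057 and 1035 in AD_Veh mice, in FPKM. Of the AD_HighP libraries, only AD_HighP 3 lay within the range of the AD_Veh libraries, and the other 4 lay below all of them. Drd2, the dopamine receptor of indirect-pathway striatal neurons, had 0.611, 6.15, 28.1, 0.819 and 8.98 FPKM in AD_HighP mice, against 14.1, 39.1, 23.6, 38.8 and 36.1 FPKM in AD_Veh mice. Penk, which encodes the enkephalin precursor of the same neurons, had 12.1, 34.1, 116, 8.65 and 52.2 FPKM in AD_HighP mice, against 55.9, 190.3, 101.2, 190.2 and 211 FPKM in AD_Veh mice. Both genes ran over a wide range within AD_HighP, lowest in AD_HighP 1 and 4 and within the AD_Veh range in AD_HighP 3. All 19 striatal genes had a lower mean in AD_HighP, and all 19 had an unadjusted p under 0.05, with a median log2 difference of -1.69; none was called after adjustment (lowest adjusted p 0.766, limma) and none was free of overlap. Within males the striatal sum averaged 443 FPKM in 3 AD_HighP mice and 770.5 FPKM in 3 AD_Veh mice. Within females it averaged 261 FPKM in 2 AD_HighP mice and 1046 FPKM in 2 AD_Veh mice. Without AD_HighP 1 and 4 the median of the list was -1.07, and without AD_HighP 1, 3 and 4 it was -1.53.

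Choroid plexus RNA stood out in AD_HighP 1 and AD_HighP 4. Ttr, which encodes transthyretin and is the most abundant choroid plexus transcript, had 788, 2.87, 2.94, 484 and 0.809 FPKM in AD_HighP mice, against 23.7, 7.03, 1.91, 1.57 and 4.31 FPKM in AD_Veh mice. Its level thus differed by orders of magnitude between mice of 1 group, and the fit gave a log2 difference of 2.07 with an SE of 1.71 (limma adjusted p = 0.785). Another 4 choroid plexus genes lay below the level for testing but followed the same libraries. Kl, which encodes klotho, a co-receptor of fibroblast growth factor 23, had 6.4, 0.269, 0.307, 4.51 and 0.311 FPKM in AD_HighP mice, against 0.447, 0.407, 0.216, 0.542 and 0.747 FPKM in AD_Veh mice, and Kcnj13, Aqp1 and Folr1 were likewise highest in AD_HighP 1 and 4. The summed level of the 20 choroid plexus genes was 959, 61.6, 52.3, 643 and 63.2 in AD_HighP mice, against 86.9, 65, 68.4, 52.6 and 47 in AD_Veh mice, in FPKM. Outside AD_HighP 1 and 4 most of that sum was Enpp2. This gene had 52.1, 44.5 and 54.8 FPKM in AD_HighP 2, 3 and 5, and 33.4 to 62 FPKM in AD_Veh mice. Of the 20 genes 6 were tested, all with a higher mean in AD_HighP (median log2 difference 0.65). Without AD_HighP 1 and 4 that median was -0.22. Meningeal and fibroblast genes leaned the same way. Their 20 genes summed to 73.9, 58.8, 49.5, 111 and 67.7 in AD_HighP mice, against 47.1, 51.1, 42.8, 57 and 46.9 in AD_Veh mice, in FPKM. Of 17 tested members, 15 had a higher mean in AD_HighP (median log2 difference 0.39, and 0.17 without AD_HighP 1 and 4). An unadjusted p under 0.05 was found for 7 of the 15 (41.2% of those tested, beside 6.11% of all tested genes). Aldh1a2, the retinoic acid synthesising enzyme of meningeal fibroblasts, had 3.08, 2.96, 2.82, 8.14 and 5.2 FPKM in AD_HighP mice, against 1.9, 2.24, 1.73, 2.83 and 2.63 FPKM in AD_Veh mice. No choroid plexus or meningeal gene was called. Values from a model with a striatal score as a term, or from a fit without AD_HighP 1 and 4, are given beside many of the results that follow. The striatal score of a library is the mean of the striatal genes' log2(FPKM + 0.5), each standardised over the 25 libraries. It was -1.54, -0.85, 0.35, -1.77 and -0.75 in AD_HighP mice, against -0.24, 0.78, 0.24, 0.72 and 0.72 in AD_Veh mice. The score thus leans lower in AD_HighP, and a model with it cannot separate striatal RNA from other differences between the groups. The cause of the shifts in the values from these fits was not tested.

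**Figure D1:**
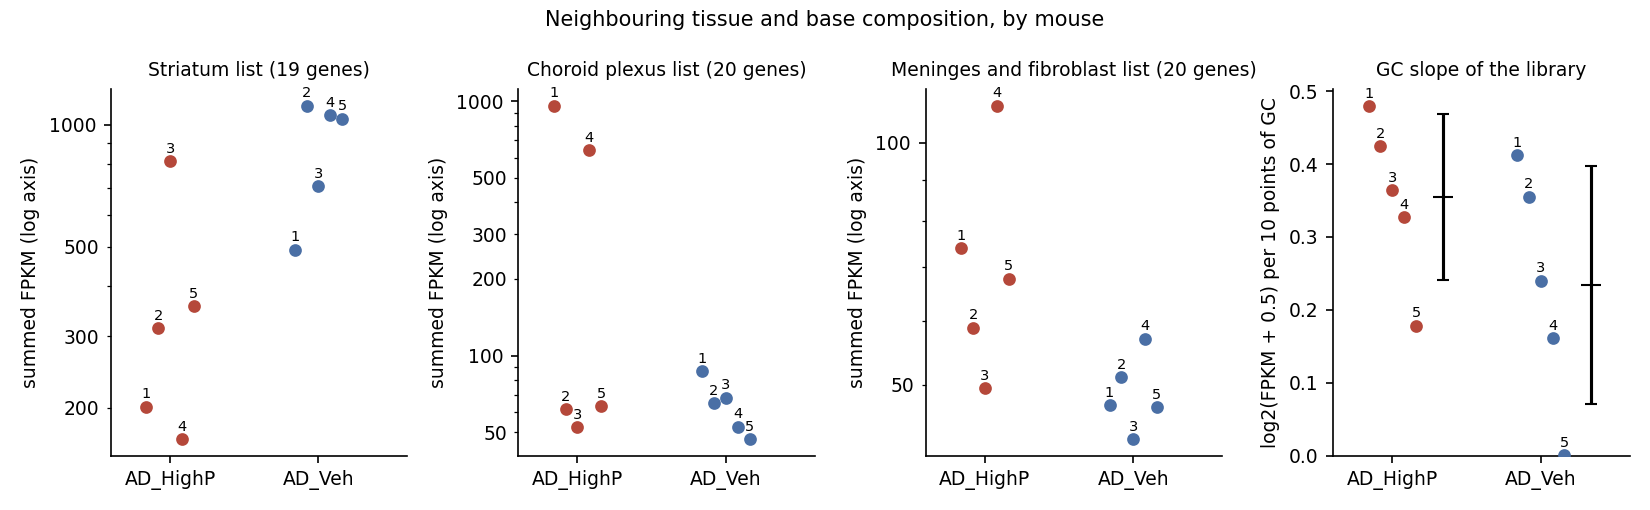
Summed FPKM of the striatum, choroid plexus and meninges lists (log axes) and the GC slope of each library (linear axis), for 5 AD_HighP mice on the left and 5 AD_Veh mice on the right of each panel; points are mice, numbered by replicate, and the bars beside the GC slopes are mean ± SD. The striatal sum was lower in 4 of 5 AD_HighP mice than in any AD_Veh mouse, and the choroid plexus sum reached 959 and 643 FPKM in AD_HighP 1 and 4.

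A single gene was called between High P and vehicle. Mir124a-3, 1 of the 3 loci of the neuronal microRNA miR-124, was higher in AD_HighP, and no gene was called lower. Mir124a-3 passed the filter of 0.5 FPKM in 5 libraries only through the 5 AD_HighP mice, where it is high, so it could enter the test only by differing, and with no filter it was not called (limma adjusted p = 0.0681, in a range of 0.000195 to 0.9997 over 29 alternative fits). A gene was called at a Benjamini-Hochberg adjusted p under 0.05 in a limma fit of log2(FPKM + 0.5) to all 25 libraries. That is 0.00665% of the genes tested in either direction, 0.00665% called higher and 0% called lower. At an unadjusted p under 0.05, 919 genes passed (6.11%), of which 378 had a higher mean in AD_HighP (2.51%) and 541 a lower one (3.6%). The groups did not overlap for 215 genes (1.43%), 106 of them higher (0.705%) and 109 lower (0.725%), and 49.8% of all tested genes had a lower mean in AD_HighP. With limma voom on the reads recovered from the FPKM values, no gene was called and 907 had an unadjusted p under 0.05. The median SE of a log2 difference was 0.14. The 95% interval lay within a 2-fold change in either direction for 13993 genes (93%) and within a 1.5-fold change for 11057 genes (73.5%).

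**Figure D2:**
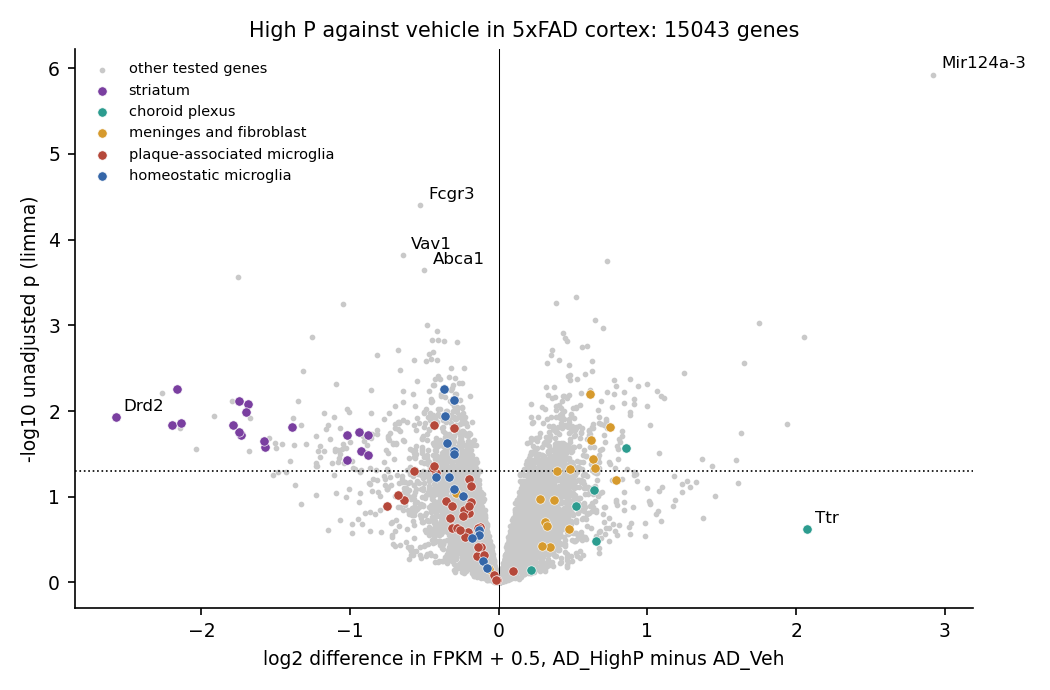
Log2 difference in FPKM + 0.5 (AD_HighP minus AD_Veh) against −log10 of the unadjusted limma p for 15043 genes, with members of 5 lists coloured and a dotted line at the unadjusted threshold. Mir124a-3 is the highest point and lies at the right, the 19 striatal genes all lie left of 0, and 34 of 35 plaque-associated and 15 of 15 homeostatic microglia genes lie left of 0 and near it.

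Mir124a-3 lies on chromosome 2 at chr2:180894040-180894107 (mm10, plus strand) and is annotated as a miRNA gene of 68 bp whose last bases overlap the start of Gm27032, a lincRNA on the same strand at chr2:180894105-180895220. miR-124 is a neuron-enriched microRNA that represses non-neuronal transcripts. The locus had 2.74, 3.43, 5.26, 4.26 and 1.71 FPKM in AD_HighP mice, against 0, 0, 0, 0 and 0 FPKM in AD_Veh mice. These levels are 3, 4, 6, 5 and 2 reads in AD_HighP mice, against no read in any AD_Veh mouse. Every AD_HighP mouse had reads at the locus and the groups did not overlap. The fitted log2 difference was 2.92 (SE 0.45, limma adjusted p = 0.0178), which depends on the pseudocount. Against a floor of 3 reads over the 5 AD_Veh libraries, the 20 reads of AD_HighP were 6.47-fold higher after scaling to library size. That ratio allows for counting error in AD_Veh only. It leaves out the counting error of the 20 reads and the spread between mice. The libraries were made from poly(A) RNA with selection for fragments of 370 to 420 bp, longer than the locus, so these reads are not a measure of the mature microRNA.

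The locus was also called higher with High P in the separate wild-type mice. Mir124a-3 had 5, 1, 5, 3 and 7 reads in WT_HighP mice, against 1, 0, 0, 0 and 0 in WT_Veh mice (log2 difference 2.57, limma adjusted p = 0.0247, in a comparison that called 4.25% of the tested genes). The slope of level on GC content described further on was also higher in these mice, at 0.497, 0.54, 0.466, 0.503 and 0.405 in WT_HighP mice, against 0.372, 0.17, 0.118, -0.0292 and -0.047 in WT_Veh mice, and its part in that call was not tested. The interaction of genotype with High P was 0.35 (SE 0.64, limma adjusted p = 0.894). AD_LowP mice had 0, 0, 1, 0 and 3 reads, and the difference of AD_HighP from AD_LowP was 2.10 (limma adjusted p = 0.52). The other miR-124 loci had few reads or none. Mir124a-1 had no read in any library, and Mir124a-2 had 1, 4, 0, 3 and 0 reads in AD_HighP mice, against 1, 5, 0, 0 and 0 in AD_Veh mice. The host transcript Mir124-2hg had between 536 and 796 reads in AD_HighP mice, against 467 to 838 in AD_Veh mice. Gm27032, looked up for its overlap, had 7.36, 7.31, 7.27, 5.71 and 4.73 FPKM in AD_HighP mice, against 8.24, 4.97, 3.12, 1.03 and 3.91 FPKM in AD_Veh mice, and its groups overlapped. How reads over the shared bases were assigned is not known. The call on Mir124a-3 rests on few reads. It was lost when any 1 of 8 of the 10 libraries was left out (adjusted p between 0.0529 and 0.115) and kept without AD_Veh 2 (0.038) or AD_HighP 5 (0.0175), and it was lost in 17 of 29 alternative fits in all, among them voom (adjusted p = 0.496), the striatal score as a term (log2 difference 2.41, adjusted p = 0.305) and the fit without AD_HighP 1 and 4 (log2 difference 2.88, adjusted p = 0.39), with adjusted p between 0.000195 and 0.9997 over the 29.

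**Figure D3:**
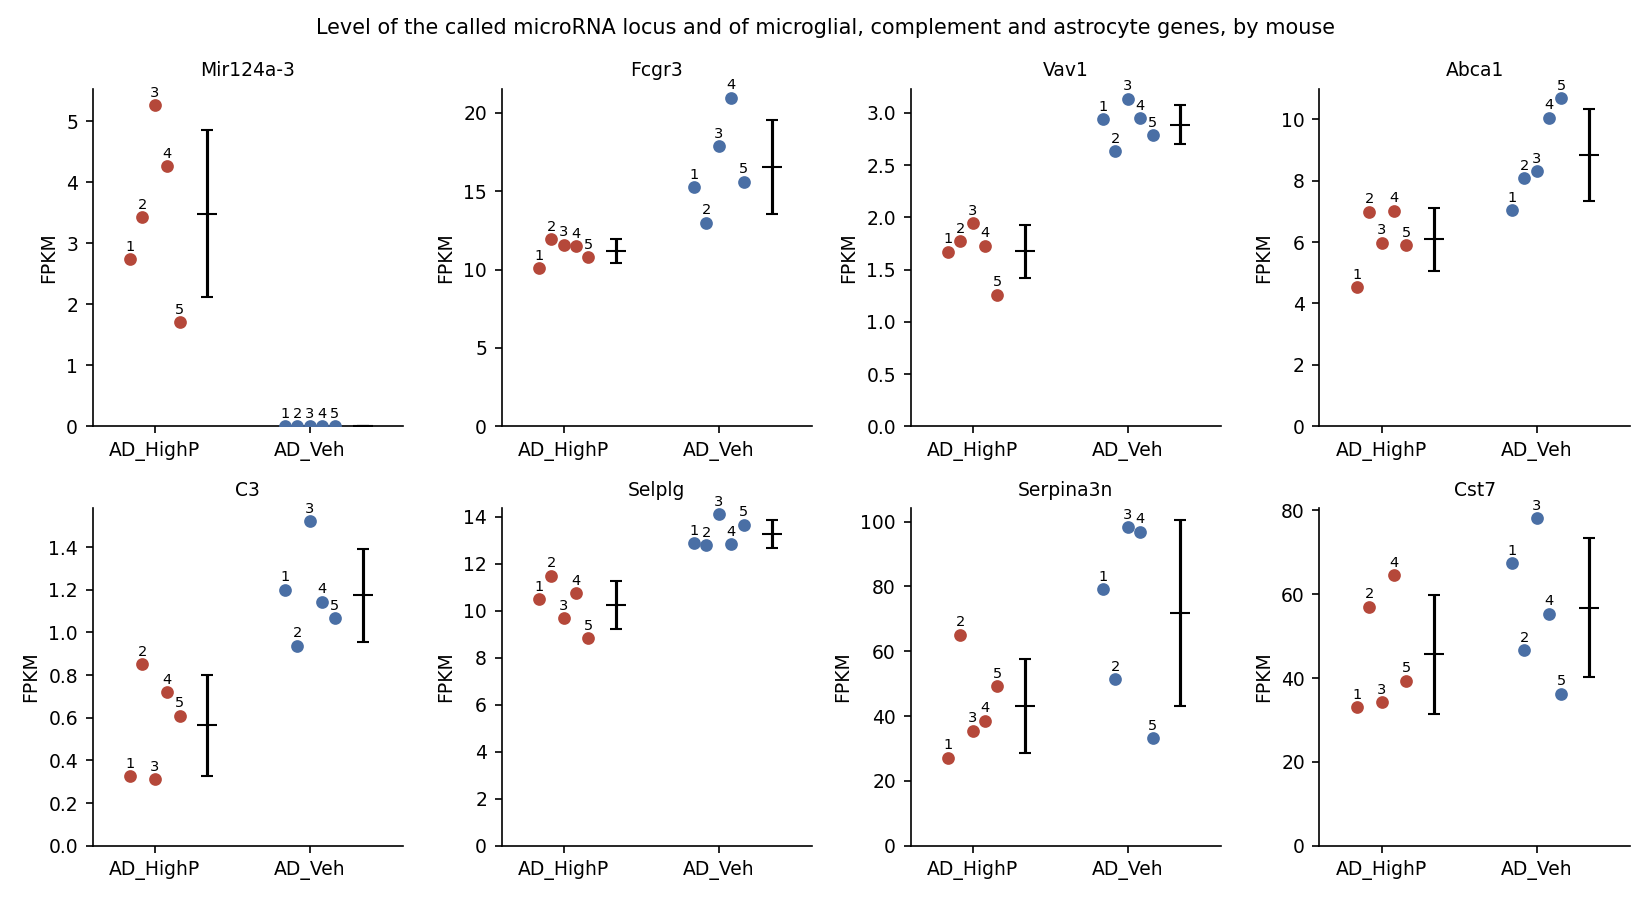
FPKM (linear axes from 0) of Mir124a-3, of the microglial genes Fcgr3, Vav1, Selplg and Cst7, of Abca1 and the complement component C3, and of the astrocyte gene Serpina3n, for 5 AD_HighP mice on the left and 5 AD_Veh mice on the right of each panel; points are mice, numbered by replicate, and bars are mean ± SD. Mir124a-3, Fcgr3, Vav1, Abca1, C3 and Selplg show no overlap between the groups, but Mir124a-3 is the only called gene among them, and Serpina3n and Cst7 overlap.

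Of the protein-coding genes, Fcgr3, Vav1 and Abca1 had the lowest unadjusted p, all with a lower mean in AD_HighP and none called. Fcgr3, an activating receptor for the constant region of IgG, had 10.1, 11.9, 11.6, 11.5 and 10.8 FPKM in AD_HighP mice, against 15.3, 13, 17.9, 21 and 15.6 FPKM in AD_Veh mice. All 5 AD_HighP mice lay below all 5 AD_Veh mice, and the means were 11.2 ± 0.745 FPKM in AD_HighP mice and 16.5 ± 3.02 FPKM in AD_Veh mice (SD, n = 5 each; log2 difference -0.53, SE 0.11, limma adjusted p = 0.297). Leaving out AD_Veh 2 brought Fcgr3 past the threshold (limma adjusted p = 0.038, in a range of 0.038 to 0.9999 over the 29 alternative fits). Vav1, a guanine nucleotide exchange factor downstream of immune receptors, had 1.67, 1.77, 1.94, 1.73 and 1.26 FPKM in AD_HighP mice, against 2.94, 2.63, 3.13, 2.95 and 2.78 FPKM in AD_Veh mice. The groups were separate again, with a log2 difference of -0.65 (SE 0.14, limma adjusted p = 0.661). Abca1, the transporter that loads cholesterol onto apolipoprotein E, had 4.54, 6.99, 5.98, 7.01 and 5.9 FPKM in AD_HighP mice, against 7.03, 8.08, 8.3, 10 and 10.7 FPKM in AD_Veh mice, and its highest AD_HighP value lay just below its lowest AD_Veh value (log2 difference -0.50, SE 0.12, limma adjusted p = 0.681). Abca1 is not a microglial gene alone; it is also expressed by astrocytes and vessels. With the striatal score in the model its log2 difference was -0.34, and those of Fcgr3 and Vav1 were -0.50 and -0.59.

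Fcgr3 and Vav1 were both called higher in 5xFAD than in wild-type mice on vehicle. In AD_Veh against WT_Veh mice, where 3.39% of the tested genes were called (471 higher and 39 lower), the log2 difference was 1.70 for Fcgr3 and 1.40 for Vav1 (limma adjusted p = 8.93e-11 and 2.91e-07). That comparison shares the AD_Veh libraries with the comparison of High P. AD_LowP mice had 13.5 ± 1.25 FPKM of Fcgr3 and 2.59 ± 0.438 FPKM of Vav1 (SD, n = 5). In wild-type mice, Fcgr3 averaged 5.05 FPKM with High P and 4.69 FPKM with vehicle, and Vav1 averaged 1.02 FPKM with High P and 0.801 FPKM with vehicle. The interaction term was -0.62 for Fcgr3 and -0.88 for Vav1 (limma adjusted p = 0.565 and 0.506). Another 2 microglial genes stood on the same short list of lowest p without overlap. Hpgds, the haematopoietic prostaglandin D synthase, averaged 1.83 ± 0.169 FPKM in AD_HighP mice and 2.61 ± 0.397 FPKM in AD_Veh mice, and Pld4, an endolysosomal exonuclease of microglia, averaged 3.76 ± 0.346 FPKM in AD_HighP mice and 5.11 ± 0.581 FPKM in AD_Veh mice (SD, n = 5 each), with log2 differences of -0.41 and -0.39.

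No member of either microglial list was called. Of 15 homeostatic microglia genes, all 15 had a lower mean in AD_HighP, beside 49.8% of all tested genes. An unadjusted p under 0.05 was found for 6 (40% of the list, beside 6.11% of all tested genes). The median log2 difference was -0.30, where all tested genes had a median of 0.0007. In AD_Veh against WT_Veh mice the median of the same genes was 0.73, of the opposite sign. That comparison shares the AD_Veh libraries with the comparison of High P. Selplg, the P-selectin ligand, was the member with no overlap between groups and had 10.5, 11.5, 9.69, 10.7 and 8.83 FPKM in AD_HighP mice, against 12.9, 12.8, 14.1, 12.8 and 13.7 FPKM in AD_Veh mice (log2 difference -0.36, SE 0.13, limma adjusted p = 0.766). Tgfbr1, the receptor through which TGF-beta keeps microglia in their resting state, had 6.68, 8.86, 7.62, 9.52 and 7.95 FPKM in AD_HighP mice, against 8.86, 9.57, 11.1, 11.8 and 12 FPKM in AD_Veh mice (log2 difference -0.37, SE 0.12, limma adjusted p = 0.766). P2ry12, the purinergic receptor of process-bearing microglia, had 15.2, 19.4, 20.4, 17.9 and 22.3 FPKM in AD_HighP mice, against 18, 21.8, 24.9, 23.6 and 30 FPKM in AD_Veh mice, with broad overlap. With the striatal score in the model the log2 difference of P2ry12 was -0.07, against -0.30 without it, and that of Tgfbr1 was -0.20; without AD_HighP 1 and 4 that of P2ry12 was -0.17. Tmem119 overlapped almost wholly between the groups (log2 difference -0.11, and -0.32 with the striatal score). The median of the homeostatic list was -0.22 with the striatal score and -0.25 without AD_HighP 1 and 4. The summed level of the homeostatic list was 226, 299.9, 247, 282 and 266 in AD_HighP mice, against 302, 298, 348, 360.3 and 308 in AD_Veh mice, in FPKM. AD_HighP 2 alone of the AD_HighP mice reached the range of the AD_Veh mice.

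Of 35 plaque-associated microglia genes, 34 had a lower mean in AD_HighP and 6 had an unadjusted p under 0.05 (17.1% of the list, beside 6.11% of all tested genes). The median log2 difference was -0.24, which is small beside the median genotype difference of 1.59 for the same genes in AD_Veh against WT_Veh mice. Cst7, which encodes cystatin F and was at 0.401 FPKM in WT_Veh mice, had 33, 57, 34.2, 64.6 and 39.4 FPKM in AD_HighP mice, against 67.4, 46.7, 78.2, 55.3 and 36.3 FPKM in AD_Veh mice. The 2 groups overlapped, with AD_HighP 2, 4 and 5 among the AD_Veh values (log2 difference -0.32, SE 0.26, limma adjusted p = 0.783). Cd68, a lysosomal membrane protein of phagocytes, had 18.5, 28.8, 23.4, 37 and 24.4 FPKM in AD_HighP mice, against 36.8, 31.4, 44.1, 43.4 and 23.7 FPKM in AD_Veh mice (log2 difference -0.44, SE 0.17, limma adjusted p = 0.766). Itgax, the CD11c integrin of plaque-associated microglia, had 3.33, 6.11, 5.29, 8.09 and 5.18 FPKM in AD_HighP mice, against 7.92, 7.16, 8.96, 11.9 and 3.86 FPKM in AD_Veh mice (log2 difference -0.44, SE 0.21, limma adjusted p = 0.766). Trem2 had a log2 difference of -0.24, the beta-glucan receptor Clec7a -0.33 and Apoe 0.09, none of them called. The value of Clec7a was -0.16 without AD_HighP 1 and 4, and Apoe turned to -0.27 with the striatal score in the model. Spp1, which encodes osteopontin, ran from 8.38 to 64.1 FPKM in AD_HighP mice and from 14.9 to 83.5 FPKM in AD_Veh mice. Within males the median of the list was -0.33, and within females it was -0.09. With the striatal score in the model it was -0.24, with the choroid plexus score -0.25, and without AD_HighP 1 and 4 it was -0.20. The 2 microglial medians were negative in all 29 alternative fits, which share most of their libraries.

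Astrocyte, complement and antigen presentation genes gave the same picture of small negative medians without a call. Of 20 tested reactive astrocyte genes, 16 had a lower mean in AD_HighP (median log2 difference -0.18). An unadjusted p under 0.05 was found for 2 of the 20 (10%, beside 6.11% of all tested genes). Serpina3n had 27.2, 65.1, 35.5, 38.6 and 49.3 FPKM in AD_HighP mice, against 79.1, 51.4, 98.3, 96.9 and 33.2 FPKM in AD_Veh mice, so that 4 of 5 AD_HighP mice lay below 4 of 5 AD_Veh mice while AD_Veh 5 lay among the AD_HighP mice (log2 difference -0.68, SE 0.26, limma adjusted p = 0.766; -0.45 without AD_HighP 1 and 4). Gfap, the astrocyte intermediate filament, had 215, 348, 241, 278 and 262 FPKM in AD_HighP mice, against 341, 288, 421, 469 and 253 FPKM in AD_Veh mice (log2 difference -0.38, SE 0.21, limma adjusted p = 0.767). With the striatal score in the model the log2 difference was -0.88 for Serpina3n and -0.53 for Gfap, and the reactive astrocyte median was -0.25. Osmr, the oncostatin M receptor, averaged 1.21 ± 0.326 FPKM in AD_HighP mice and 1.72 ± 0.331 FPKM in AD_Veh mice (SD, n = 5 each). C3, the central complement component, had 0.327, 0.85, 0.313, 0.721 and 0.609 FPKM in AD_HighP mice, against 1.2, 0.938, 1.52, 1.14 and 1.07 FPKM in AD_Veh mice. Its groups did not overlap, at levels near the lower limit of testing (log2 difference -0.67, SE 0.19, limma adjusted p = 0.766), and its interaction with genotype was -1.20 (limma adjusted p = 0.506). Complement genes had a lower mean in 11 of 15 (median -0.17), antigen presentation genes in 15 of 19 (median -0.19), cytokines and sensors in 11 of 15 (median -0.11) and interferon response genes in 21 of 26 (median -0.08). The medians with the striatal score in the model were -0.34 for antigen presentation and -0.24 for cytokines and sensors. Cd74, the class II invariant chain, had 12.7, 20.6, 12.9, 47.3 and 9.92 FPKM in AD_HighP mice, against 31.3, 22.5, 34.4, 26.3 and 24.4 FPKM in AD_Veh mice, with AD_HighP 4 above every other mouse (log2 difference -0.64, -1.02 with the striatal score, -0.96 without AD_HighP 1 and 4). Tap1, the class I peptide transporter, leaned the other way and averaged 1.71 ± 0.487 FPKM in AD_HighP mice and 1.05 ± 0.386 FPKM in AD_Veh mice (SD, n = 5 each; log2 difference 0.52, SE 0.20, limma adjusted p = 0.766). Tlr2, a receptor for bacterial lipopeptides, averaged 2.24 ± 0.531 FPKM in AD_HighP mice and 3.24 ± 0.581 FPKM in AD_Veh mice (log2 difference -0.46, SE 0.14, limma adjusted p = 0.766). The general astrocyte list, which is not tied to reactivity, had a median of -0.01 with 9 of 18 members lower.

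**Figure D4:**
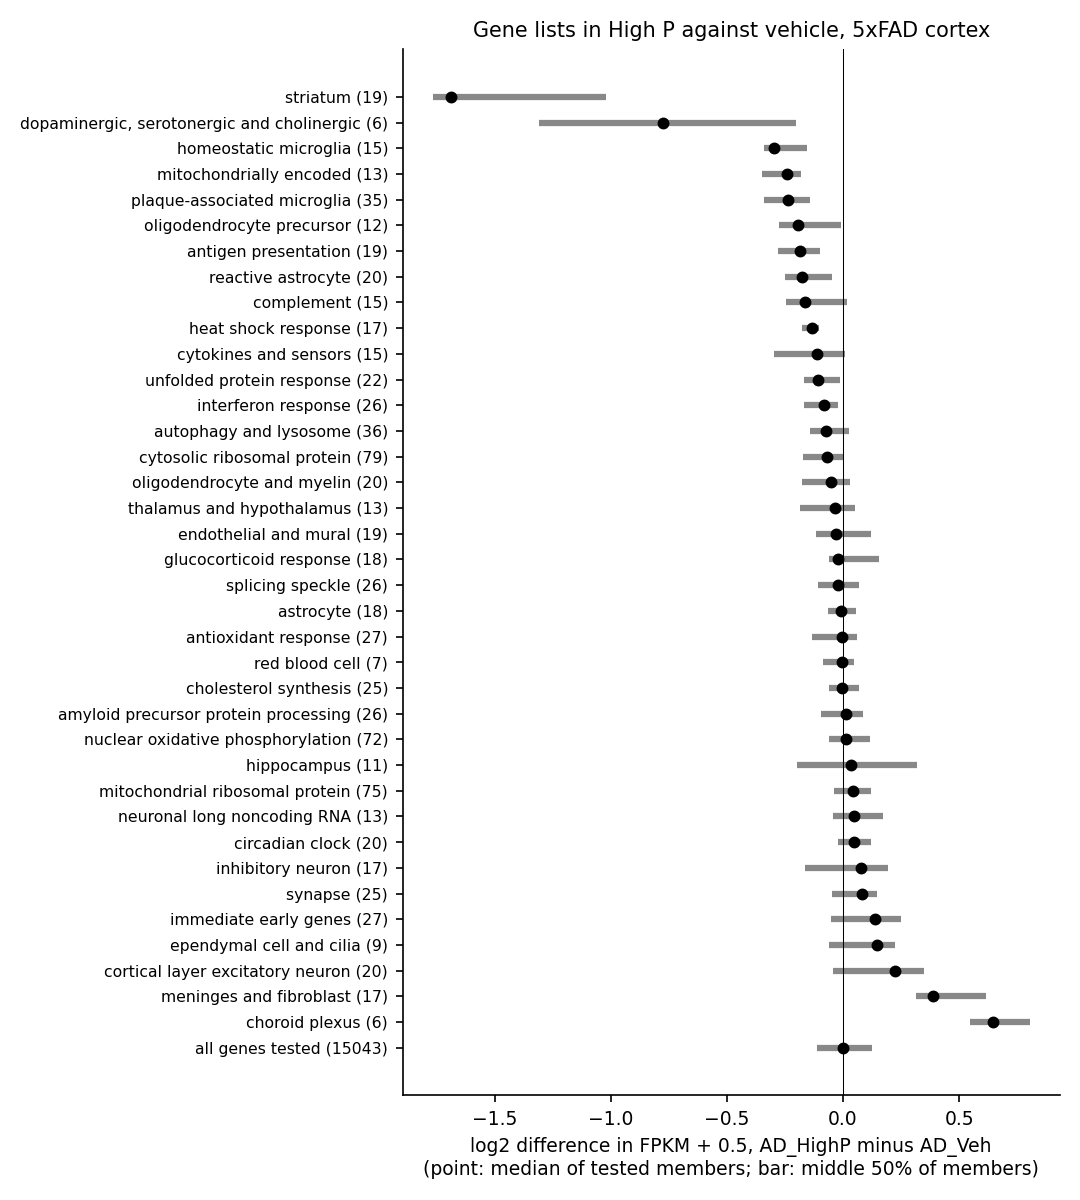
Median log2 difference (AD_HighP minus AD_Veh, log2 FPKM + 0.5) of 37 gene lists, sorted, with all 15043 tested genes in the bottom row; points are medians of the tested members, whose number stands in brackets, and bars span the middle 50% of members. The striatum list lies farthest to the left at -1.69, the choroid plexus list farthest to the right at 0.65, and the 2 microglial lists lie at -0.30 and -0.24.

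Outside the immune genes, the lowest p-values without overlap, among named genes with a mean of 1 FPKM or more, belonged to genes of mixed function, none called. On the lower side, Galnt7, which starts or extends O-glycans, averaged 1.95 ± 0.261 FPKM in AD_HighP mice and 2.93 ± 0.339 FPKM in AD_Veh mice, and Map3k13, a kinase of neuronal stress signalling, averaged 3.91 ± 0.302 FPKM in AD_HighP mice and 5.63 ± 0.888 FPKM in AD_Veh mice (SD, n = 5 each). Mdm2, the ubiquitin ligase that restrains p53, had 7.36, 6.96, 7.3, 7.76 and 7.11 FPKM in AD_HighP mice, against 8.64, 8.75, 8.83, 10.7 and 9.81 FPKM in AD_Veh mice, and all AD_HighP mice lay below all AD_Veh mice (log2 difference -0.33, SE 0.10, limma adjusted p = 0.766). In wild-type mice Mdm2 averaged 7.64 FPKM with High P and 10.3 FPKM with vehicle (log2 difference -0.39, limma adjusted p = 0.0432). In the model with the striatal score, Mdm2 had a log2 difference in 5xFAD mice of -0.17. The other 4 lower genes were Ppil3, a cyclophilin-like isomerase, Ddx31, an RNA helicase, Eri1, a 3' exonuclease, and Fbxo38, an F-box protein, with log2 differences between -0.41 and -0.25.

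On the higher side, Lmo1, a LIM-only transcriptional cofactor, had 6.69, 3.45, 4.77, 5.64 and 3.93 FPKM in AD_HighP mice, against 2.85, 2.84, 2.95, 2.14 and 2.66 FPKM in AD_Veh mice (log2 difference 0.73, SE 0.24, limma adjusted p = 0.766). Its 2 highest values were those of AD_HighP 1 and 4, and without these mice the log2 difference was 0.51. Tbcc, a tubulin folding cofactor, had 19.2, 17.5, 14.6, 13.8 and 13.3 FPKM in AD_HighP mice, against 12.6, 12.9, 12.9, 5.55 and 8.52 FPKM in AD_Veh mice (log2 difference 0.61, SE 0.20, limma adjusted p = 0.766), and it had a log2 difference of 0.78 in wild-type mice (limma adjusted p = 0.0403). Correction for GC content moved the value of Tbcc in 5xFAD mice to 0.43. Rras2, a Ras-related GTPase, averaged 4.56 ± 0.587 FPKM in AD_HighP mice and 3.23 ± 0.505 FPKM in AD_Veh mice (SD, n = 5 each). Kiss1r, the kisspeptin receptor, averaged 1.96 ± 0.273 FPKM in AD_HighP mice and 1.17 ± 0.156 FPKM in AD_Veh mice (SD, n = 5 each). Adding the striatal score to the model gave a log2 difference of 0.22 for Rras2, against 0.44 without it, 0.26 for Kiss1r, against 0.55, and 0.40 for Tbcc. The other 7 higher genes were Thnsl2, Hist2h2be, a histone H2B, Alg1, the first mannosyltransferase of N-glycan assembly, Abhd14b, Cln6, an endoplasmic reticulum protein mutated in a form of Batten disease, Aqp11, an intracellular aquaporin, and Tmem97, the sigma-2 receptor. Their log2 differences lay between 0.32 and 0.47, with limma adjusted p of 0.766 throughout, and with the striatal score those of Cln6, Aqp11 and Tmem97 were 0.30, 0.15 and 0.22.

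**Figure D5:**
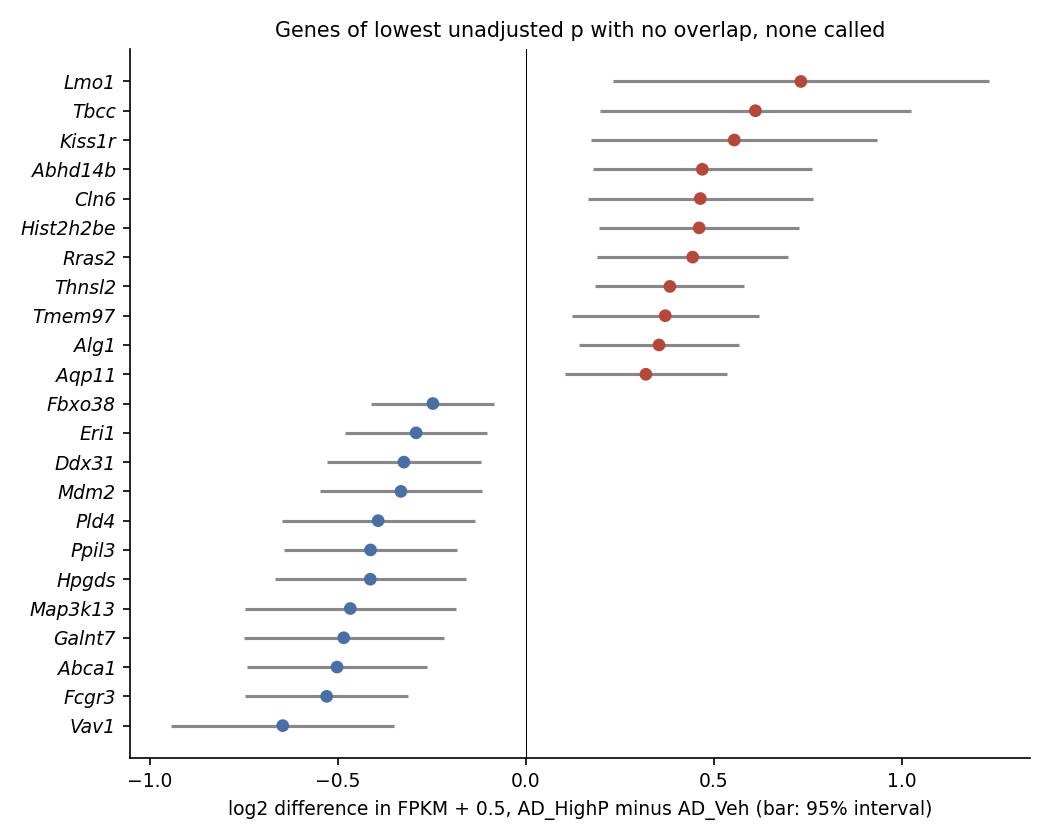
Log2 difference (AD_HighP minus AD_Veh) and 95% interval for the 23 genes of lowest unadjusted p without overlap between 5 AD_HighP and 5 AD_Veh mice, among genes with a mean of 1 FPKM or more and leaving out unnamed models and pseudogenes, 11 with a higher mean in AD_HighP (upper rows) and 12 with a lower one. None of these intervals reaches 0, yet none of the genes was called after adjustment over 15043 genes.

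No member of the neuronal lists was called. Of 20 cortical layer genes, 14 had a higher mean in AD_HighP (median log2 difference 0.22), and with the striatal score in the model that median was -0.02. The 2 members with an unadjusted p under 0.05 (10% of the list, beside 6.11% of all tested genes), Bcl11b and Syt6, ran the other way. Bcl11b, a transcription factor of deep-layer neurons that medium spiny neurons of the striatum share, had 10.3, 10.6, 17.6, 9.72 and 11.4 FPKM in AD_HighP mice, against 13.8, 21.7, 15, 21.4 and 23.9 FPKM in AD_Veh mice, in the same order as the striatal sums within AD_HighP. With the striatal score in the model the log2 difference of Bcl11b was -0.04, against -0.66 without it, that of Syt6 was 0.01, against -0.91, and that of Slc17a7 was -0.14. Slc17a7 averaged 265 ± 25.8 FPKM in AD_HighP mice and 225 ± 38.9 FPKM in AD_Veh mice (SD, n = 5 each; log2 difference 0.25, SE 0.21, limma adjusted p = 0.787). Stx1a, a syntaxin of the presynaptic fusion machinery, had 123, 101.3, 107, 100.8 and 95.3 FPKM in AD_HighP mice, against 98.9, 86.3, 85.9, 56.6 and 53.2 FPKM in AD_Veh mice (log2 difference 0.50, SE 0.20, limma adjusted p = 0.766). Its 2 lowest values were those of AD_Veh 4 and 5, and with the striatal score in the model its log2 difference was 0.14. Among interneuron genes, Vip had 10.3, 9.9, 9.47, 12.3 and 13.1 FPKM in AD_HighP mice, against 8.8, 7.31, 9.33, 7.69 and 7.22 FPKM in AD_Veh mice without overlap (log2 difference 0.42, SE 0.16, limma adjusted p = 0.766), and Gad2, the GABA-synthesising enzyme that striatal neurons also express, had 27.1, 29.1, 38.8, 27.2 and 37.8 FPKM in AD_HighP mice, against 32.7, 47.7, 40.4, 72.7 and 72.9 FPKM in AD_Veh mice (log2 difference -0.67, SE 0.25, limma adjusted p = 0.766). The log2 differences in the model with the striatal score were 0.20 for Vip and -0.13 for Gad2. Cholinergic interneurons belong to the striatum as well. Slc18a3, the vesicular acetylcholine transporter, had 0.129, 0.338, 0.94, 0.216 and 0.168 FPKM in AD_HighP mice, against 0.551, 1.88, 1.72, 1.83 and 2.18 FPKM in AD_Veh mice, and the list of dopaminergic, serotonergic and cholinergic genes had a median of -0.77, which was 0.01 with the striatal score in the model. With that score the log2 difference of Slc18a3 was -0.42, against -1.31 without it. Synaptic genes had a median of 0.08 (-0.03 with the score) and immediate early genes a median of 0.14 (0.01), and Fos, the activity-induced transcription factor, overlapped widely (log2 difference 0.14, and -0.09 with the score).

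Mitochondrially encoded transcripts had a lower mean in AD_HighP for 11 of 13 genes, with a median log2 difference of -0.24 and none called. mt-Nd1, a subunit of respiratory complex I, had 4247, 5646, 4998, 5662 and 5339.9 FPKM in AD_HighP mice, against 4906, 5772, 6063, 7624 and 6966 FPKM in AD_Veh mice (log2 difference -0.27, SE 0.16, limma adjusted p = 0.767). Their share of all reads was 4.08 ± 0.419% in AD_HighP mice and 4.84 ± 0.888% in AD_Veh mice (SD, n = 5 each; exact permutation p = 0.143, two-sided, 0.31 adjusted over 3 library measures, where the smallest possible p is 0.00794). With the striatal score in the model the median of these genes was -0.01 and the log2 difference of mt-Nd1 was -0.02. Nuclear genes of oxidative phosphorylation had a median of 0.01 over 72 genes. Cytosolic ribosomal protein genes had a lower mean in 59 of 79, with a median of -0.07; Rpl7, a large-subunit protein, averaged 78.1 ± 5.56 FPKM in AD_HighP mice and 89.3 ± 4.04 FPKM in AD_Veh mice (SD, n = 5 each). Heat shock genes had a median of -0.13 and unfolded protein response genes a median of -0.11, both -0.03 with the striatal score, with Chac1, a glutathione-degrading enzyme induced by that response, at 5.3 ± 0.337 FPKM in AD_HighP mice and 3.67 ± 1.22 FPKM in AD_Veh mice (SD, n = 5 each; log2 difference 0.52, SE 0.18, limma adjusted p = 0.766). The antioxidant response list had a median of -0.01; Hmox1, heme oxygenase 1, had a log2 difference of -0.19 and Nqo1, a quinone reductase, one of 0.03.

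No gene of amyloid production or clearance was called. App had 145, 147, 144, 133 and 160.4 FPKM in AD_HighP mice, against 147, 148, 142, 133 and 123 FPKM in AD_Veh mice (log2 difference 0.07, SE 0.066, limma adjusted p = 0.792), and Thy1, whose promoter sequences drive the transgenes, had a log2 difference of 0.02 (SE 0.13). That of Thy1 with the striatal score in the model was -0.18. Without AD_HighP 1 and 4 that of App was 0.12. Whether the human transgene transcripts are counted within mouse App was not tested. Of 26 genes of amyloid precursor protein processing, 13 had a lower mean in AD_HighP (median 0.01); Adam17, an alpha-secretase, had 1.91, 2.2, 2.23, 2.5 and 2.68 FPKM in AD_HighP mice, against 2.83, 2.8, 2.88, 3.17 and 3.08 FPKM in AD_Veh mice without overlap (log2 difference -0.30, SE 0.11, limma adjusted p = 0.766; -0.12 with the striatal score in the model). Autophagy and lysosome genes had a lower mean in 24 of 36 (median -0.07), oligodendrocyte precursor genes in 9 of 12 (median -0.19, and -0.10 with the score) and oligodendrocyte and myelin genes in 12 of 20 (median -0.05, and 0.12 with the score). The median of the myelin list was -0.33 within males and 0.33 within females, a difference that was not tested. Circadian clock genes had 3 members at an unadjusted p under 0.05 (15% of the list, beside 6.11% of all tested genes). Ciart, a clock repressor, had 5.89, 6.16, 6.28, 5.82 and 5.36 FPKM in AD_HighP mice, against 4.79, 3.82, 4.14, 3.88 and 4.49 FPKM in AD_Veh mice without overlap (log2 difference 0.44, SE 0.15, limma adjusted p = 0.766), and Dbp, a clock output factor, averaged 32.5 ± 3.52 FPKM in AD_HighP mice and 23.3 ± 4.91 FPKM in AD_Veh mice (SD, n = 5 each). The hour of tissue collection (not given in the sources used here) was not tested. The remaining lists (cholesterol synthesis, splicing speckle, mitochondrial ribosomal protein, neuronal long noncoding RNA, glucocorticoid response, endothelial and mural, red blood cell, hippocampus, inhibitory neuron, thalamus and hypothalamus, ependymal cell and cilia) had medians between -0.04 and 0.15 and no called member.

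Genes of higher GC content had higher log2 differences. Over all tested genes with known GC content, which are not independent replicates, the Spearman correlation of the log2 difference with GC content was 0.41. The median log2 difference was -0.096 in the fifth of genes lowest in GC and 0.13 in the fifth highest in GC, where 79.2% had a higher mean in AD_HighP. The slope of log2(FPKM + 0.5) on GC content, per 10 percentage points, was 0.479, 0.425, 0.364, 0.327 and 0.178 in AD_HighP mice, against 0.412, 0.355, 0.24, 0.161 and 0.000614 in AD_Veh mice. The group means were 0.355 ± 0.114 in AD_HighP mice and 0.234 ± 0.163 in AD_Veh mice (SD, n = 5 each; exact permutation p = 0.206, two-sided, 0.31 adjusted over 3 measures). In both groups the slope fell from replicate 1 to replicate 5, and the permutation test took no account of replicate number or sex. Within males the slope averaged 0.423 in AD_HighP mice and 0.336 in AD_Veh mice, and within females 0.253 in AD_HighP mice and 0.0807 in AD_Veh mice. With each library corrected for GC content, Mir124a-3 was again the 1 called gene (limma adjusted p = 0.0262, in the range given above). That fit kept the filter that Mir124a-3 passed only through AD_HighP mice, so the repeated call is no separate support. In the same fit the plaque-associated list had a median of -0.24 and the homeostatic list one of -0.27.

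Whether High P acted differently in the 2 genotypes, or differently from the low dose, was tested directly. No gene was called for the interaction of genotype with High P (0% of those tested), with 1059 genes at an unadjusted p under 0.05 (7.04%), a lowest limma adjusted p of 0.506, and no call with voom. With array weights, which let libraries differ in their spread, 9 genes were called for the interaction, 4 higher and 5 lower, with 2825 at an unadjusted p under 0.05. No gene was called between AD_HighP and AD_LowP (0%), with 950 at an unadjusted p under 0.05 (6.32%), a lowest limma adjusted p of 0.132, and no call with voom. The plaque-associated list had a median of -0.30 for the interaction and 0.02 for AD_HighP against AD_LowP, and the homeostatic list -0.29 and -0.05. The striatum list had a median of -1.27 for the interaction and -0.65 between the doses. These contrasts share AD_HighP, and the interaction shares AD_Veh, with the comparison above.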

How the data were processed

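RNA from the cortex of 25 mice in 5 groups was sequenced, 5 mice per group. Poly(A) RNA was fragmented and made into strand-specific libraries, per the labels' protocols. Reads were aligned with HISAT2 to mm10, per the submitters' processing notes; the aligner version and the counting tool: not given in the sources used here. The deposited table gives FPKM per gene, the authors' own values, with gene length, position and biotype, per the file headers. FPKM times gene length gave whole reads for 100% of values within 0.01 of a whole number, after scaling by 1 factor per library, and the recovered totals lie between 15518358 and 17698222 reads per library. These totals limit precision. Floors cover counting error only, while the intervals come from the limma fit and include the spread between mice.

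Genes that reached 0.5 FPKM in 5 or more of the 10 libraries were fitted as log2(FPKM + 0.5) with limma 3.58.1 (trend, R 4.3.3) to all 25 libraries with 1 mean per group, giving 20 residual degrees of freedom, and p-values were Benjamini-Hochberg adjusted over all genes tested. A fold change is on that scale and understates low genes. The fit was run on simulated data, with genes drawn independently and 1 setting of spread for all genes. The simulation held no tissue or GC differences, so it cannot show how the fit performs on these data. GC content came from GENCODE transcripts. Library depth, mitochondrial share and GC slope were compared by two-sided exact permutation tests; marker sums, first meant for the same test, are given as values only. Genes were named by a rule: called genes, then up to 12 per direction of lowest unadjusted p whose mean reached 1 FPKM and whose groups were separate (leaving out unnamed models and pseudogenes), up to 2 members of each list, and fixed tissue markers. Genes outside that rule (Gm27032, Mir208a, the other miR-124 loci and host, Fxyd7, Gng7, Rpl23a, Rps27, Selplg, Spp1, mt-Tp) were chosen after seeing their values. The untested choroid plexus genes Kl, Kcnj13, Aqp1 and Folr1 were among the fixed tissue markers. The members and lists were chosen with earlier results of these data known. Values of a few single genes are not reported here. The labels gave no pairing of the mice by replicate number, and the main fit used none. Alternatives covered pseudocount, filter, normalization, weights, sex, GC content, tissue scores, voom on recovered reads, and left-out libraries.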

Additional observations from a re-analysis of the deposited data

Results flagged for a closer look

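In 22 of 262 groups of 5 values checked (8.4%), 1 mouse stood apart from the other 4 of its group. The rule used flags about 5% of groups of independent, normally distributed values. Many of the values checked here move together, so that 5% is not their chance rate. AD_HighP 3 stood above the other AD_HighP mice for striatal genes: Adora2a at 31.4 FPKM, Ppp1r1b at 134 FPKM and Sh3rf2 at 2.37 FPKM. The same mouse was high for Bcl11b at 17.6 FPKM and Slc18a3 at 0.94 FPKM. AD_HighP 1 was high for Hist2h2be at 4.61 FPKM, Tmem97 at 12.6 FPKM and Slc17a7 at 309.7 FPKM, and low for mt-Nd4 at 1965 FPKM and Atp5o at 13.8 FPKM. AD_HighP 4 was high for Gas5 at 7.46 FPKM and Cd74 at 47.3 FPKM, and AD_HighP 5 was low for Dbp at 26.3 FPKM.

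Among AD_Veh mice, AD_Veh 4 was high for Flt1 at 9.65 FPKM, Homer1 at 29.2 FPKM and the summed hippocampus list at 232 FPKM, and low for Hist2h2be at 1.78 FPKM and Srsf5 at 13.3 FPKM. AD_Veh 1 was high for Ttr at 23.7 FPKM and low for Slc18a3 at 0.551 FPKM. AD_Veh 3 was low for Slc13a4 at 1.20 FPKM, and AD_Veh 5 was high for the summed thalamus and hypothalamus list at 49.6 FPKM.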

How the results depend on the processing

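The count of called genes was 1 with a pseudocount of 0.1 or 1, a filter of 1 FPKM, quantile normalization, array weights, sex as a term, GC correction, the choroid plexus score, or the 10 libraries of the comparison alone. In each of these fits Mir124a-3 was the called gene and passed the filter only through AD_HighP mice. The count was 0 with no filter (1649 genes at an unadjusted p under 0.05), with voom (907), with the striatal score as a term (427) and in males (392). It was also 0 in settings chosen after seeing the data: both tissue scores (435), without AD_HighP 1 and 4 (357), and without AD_HighP 1, 3 and 4 (253). In females it was 25, 7 higher and 18 lower. Leaving out 1 library gave 0 to 2 calls, 2 without AD_Veh 2 (Mir124a-3 and Fcgr3). For the interaction, array weights gave 9 calls, 4 higher and 5 lower, and the other fits in which it was tested gave 0. It was not tested in the fits with tissue scores, with 1 sex alone or with libraries left out. The cause of these differences was not tested. Over 29 alternatives, 3391 of 3529 values for 122 named genes kept the call or moved by less than the spread between replicates, 119 moved by more, 17 lost the call (all Mir124a-3) and 2 gained it (Stx1a in females, Fcgr3 without AD_Veh 2). Of 1073 list medians 1053 moved by less than the spread between replicates, 20 by more, and no called value changed sign.

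The labels gave no pairing of the mice by replicate number. Same-numbered mice correlated at 0.22, 0.11, −0.02, 0.04 and 0.24 in their deviations from the group means, and 2 of 5 correlated best with their own number. Same-numbered mice were of the same sex, and these correlations cannot decide whether the numbers also carried another shared factor. With the replicate block 1 gene was called, and with the block and GC correction, chosen after seeing the data, 0.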

Other observations

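The fit restricted to females, with 2 mice per group, called 25 genes, 18 of them lower in AD_HighP. None is on the striatum list. Of the 18 lower genes 10 were highest, among AD_HighP mice, in AD_HighP 3, the mouse of that group with the highest striatal sum. These genes were called on low values in the AD_HighP females, so a male tends to hold the highest AD_HighP value. The same share over all tested genes was not computed, and no conclusion is drawn from the count. Gng7, a G protein gamma subunit, had 24.7, 37.5, 84.2, 28.4 and 39.4 FPKM in AD_HighP mice, against 53.4, 108, 76.8, 96.3 and 108 FPKM in AD_Veh mice. The part of striatal RNA in these calls was not tested. Ribosomal protein transcripts were among the lower ones: Rpl23a had 37.8 and 35.1 FPKM in the AD_HighP females, against 89 and 75.3 FPKM in the AD_Veh females, and 27.4, 40.5 and 36.7 FPKM in the AD_HighP males, against 28.4, 36.8 and 55 FPKM in the AD_Veh males. Rps27, a small-subunit protein, had 39.3 and 28.1 FPKM in the AD_HighP females, against 78.1 and 71.3 FPKM in the AD_Veh females. The mitochondrial transfer RNA gene mt-Tp had 193 and 203 FPKM in the AD_HighP females, against 1379 and 758 FPKM in the AD_Veh females. Among the higher ones, Fxyd7, a regulator of the sodium pump in neurons, had 64.8 and 62.7 FPKM in the AD_HighP females, against 29.4 and 25.1 FPKM in the AD_Veh females, and 86, 64.5 and 67.1 FPKM in the AD_HighP males, against 75, 60.4 and 57.4 FPKM in the AD_Veh males. For Rpl23a and Fxyd7 the AD_Veh females stood apart from the males of both groups, while the AD_HighP females lay near the males. A direct test of the difference between the sexes called no gene (limma lowest adjusted p = 0.326, 814 genes at an unadjusted p under 0.05). The GC slopes of the 2 AD_Veh females were 0.161 and 0.000614, the lowest of the 10 libraries, and the part of GC content in these values was not tested.

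Mir208a, a microRNA locus looked at after its values were seen, had 4, 2, 1, 2 and 8 reads in AD_HighP mice, against 0, 1, 0, 0 and 0 in AD_Veh mice. Of the 400 tested genes shorter than 370 bp, the lower end of the selected fragment length, 207 had a higher mean in AD_HighP and 40 had an unadjusted p under 0.05. Over all 15043 tested genes, 7552 had a higher mean in AD_HighP and 919 (6.11%) had an unadjusted p under 0.05.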
